A study of Mus musculus with 15 samples.

Results

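The enzymes that take glucose to lactate in muscle were followed as 10 genes: Hk2, Pfkm, Aldoa, Tpi1, Gapdh, Pgk1, Pgam2, Eno3, Pkm and Ldha. They were chosen by symbol as the muscle forms of the steps from hexokinase to lactate dehydrogenase. All 10 were among the 20406 genes listed in the deposited counts, and all 10 passed the filter on low counts. RNA came from the plantaris of adult male HSA-GFP mice, with 15 libraries in 5 groups of 3. In these mice the human skeletal actin promoter drives a tetracycline-responsive transactivator, which switches on a fluorescent histone in the nuclei of muscle fibres, and every group carried these transgenes, controls included.

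Mice were 4 months old at the start. The group 6M_PoW was trained by progressive weighted wheel running (PoWeR, running on a wheel that is loaded by weights) for 8 weeks and sampled at 6 months. The group 9M_PoW+DT had the same training, then 12 weeks of detraining, and was sampled at 9 months. The groups 6M_UT and 9M_UT were untrained mice of 6 and 9 months. The group 6M_POW_LD consisted of 3 further 6-month libraries whose titles number them 4 to 6 of the trained mice and add LD identifiers, and the labels do not spell out LD. Groups follow the titles, but the treatment field contradicts the title in 9 libraries. In the 6 libraries of 9 months it exchanges untrained and detrained, and it lists the 3 LD libraries as sedentary, so the direction of those comparisons rests on the titles. Bracketed identifiers form a separate series for 6 months, for 9 months and for LD, so a difference of age or of LD and one of library series cannot be told apart. Nothing in the labels says that libraries of a group are separate mice, and p-values then measure only the spread between these libraries, which may be technical.

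Totals were 18865048 to 27688842 counts per library, and the 10 enzymes held 1.99% to 2.48% of them. Counts of fast fibre genes summed to 97511 to 143490 CPM (the count a gene would have in a scaled library of 1000000 counts) in a library, against 3264 to 4458 CPM for slow fibre genes, which is the makeup of a fast muscle such as the plantaris. Each enzyme had at least 2691 counts in every library, and counting error was small beside the spread between libraries. In whole muscle, fewer cells of a type and less RNA per cell cannot be told apart.

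Glycolysis splits glucose into pyruvate in the cytosol and yields ATP without oxygen. Fast fibres hold large amounts of its enzymes, since they draw on glycogen and glucose during short, forceful contractions, and lactate dehydrogenase then turns pyruvate into lactate and regenerates the NAD+ that the pathway needs. Most steps have several isoenzymes. Hk2, Pfkm, Aldoa, Pgam2 and Eno3 encode the forms that dominate in adult skeletal muscle. Ldha encodes the M subunit of lactate dehydrogenase, while the H subunit from Ldhb is abundant in oxidative fibres and heart.

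Start-site sequences are shown for the 3 enzymes that were higher in the LD libraries than in trained muscle, Ldha, Pgam2 and Tpi1, and for Pgk1, whose values in the LD libraries lay at the threshold. They come from RefSeq (build GRCm38, the assembly also called mm10) and run from 250 bases before to 50 after a gene's start, on the gene's own strand. Capitals mark ACGTG on either strand, the core bound by hypoxia-inducible factors and, within CACGTG, by E-box factors, and in Pgam2 they mark a match to the MEF2 consensus, the motif of a muscle transcription factor. CACGTG reads as ACGTG on both strands and was counted as 2 overlapping matches. The Ldha window lies at chr7:46845554-46845853, that of Pgk1 at chrX:106186850-106187149, that of Pgam2 at chr11:5803747-5804046 and that of Tpi1 at chr6:124814109-124814408.
Ldha: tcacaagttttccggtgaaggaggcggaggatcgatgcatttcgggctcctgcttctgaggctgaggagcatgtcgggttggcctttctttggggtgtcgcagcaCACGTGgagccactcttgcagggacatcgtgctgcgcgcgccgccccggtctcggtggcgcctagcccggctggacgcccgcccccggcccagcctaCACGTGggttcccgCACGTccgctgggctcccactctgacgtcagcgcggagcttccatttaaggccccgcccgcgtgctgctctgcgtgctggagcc
Pgk1: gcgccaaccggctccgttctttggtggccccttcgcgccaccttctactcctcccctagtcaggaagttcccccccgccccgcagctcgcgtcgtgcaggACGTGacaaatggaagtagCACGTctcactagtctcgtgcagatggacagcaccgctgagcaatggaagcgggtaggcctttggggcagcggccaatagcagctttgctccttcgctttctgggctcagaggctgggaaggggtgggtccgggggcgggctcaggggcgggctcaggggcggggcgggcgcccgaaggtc
Pgam2: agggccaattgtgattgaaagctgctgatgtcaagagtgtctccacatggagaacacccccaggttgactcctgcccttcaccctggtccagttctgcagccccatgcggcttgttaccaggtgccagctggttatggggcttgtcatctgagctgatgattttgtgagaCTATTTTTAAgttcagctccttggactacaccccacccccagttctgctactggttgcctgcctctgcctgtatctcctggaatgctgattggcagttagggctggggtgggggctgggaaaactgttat
Tpi1: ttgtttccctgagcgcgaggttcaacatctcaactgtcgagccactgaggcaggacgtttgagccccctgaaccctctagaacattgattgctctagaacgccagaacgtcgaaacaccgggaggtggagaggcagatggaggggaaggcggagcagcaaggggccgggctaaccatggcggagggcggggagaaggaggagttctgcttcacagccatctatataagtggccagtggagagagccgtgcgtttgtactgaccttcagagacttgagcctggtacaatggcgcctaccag

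The first listed Ldha start held 5 matches to ACGTG and its second listed start held 0. The Pgk1 window held 2, and those of Pgam2 and Tpi1 held 0. Hk2 had 2 matches and Gapdh 1. Of the 4 listed starts of Pfkm, the first had 3 matches, the second 1 and the others 0. Eno3 had none, so 7 of the 10 enzymes had at least 1 window with ACGTG, and 9 of their 17 windows held it. Over all 32851 promoter windows of this length the share was 19.6%. The MEF2 consensus was found in 1 of the 17 windows, that of Pgam2, and in 3.2% of all windows. The E-box CANNTG, which overlaps CACGTG, was found in 13 of the 17 windows and in 72.3% of all. These matches describe letters in a window and not bound sites.

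The enzymes spanned a wide range of levels. Per kilobase of exon, the mean over 15 libraries was 3846 CPM for Aldoa, the aldolase that splits fructose 1,6-bisphosphate, and 1954 CPM for Eno3, the muscle enolase. Pgam2, the muscle phosphoglycerate mutase, had 1208 CPM per kilobase. Ldha with 888, Pkm with 868, Pfkm with 830 and Tpi1 with 751 CPM per kilobase lay close together. The range of Ldha over libraries, 727 to 1189 per kilobase, overlapped those of Pkm (769 to 946), Pfkm (666 to 954) and Tpi1 (666 to 877), so these neighbours were not separated by their spread. Gapdh followed at 376, Pgk1 at 96.3 and Hk2, which phosphorylates glucose on its entry, at 64.2 CPM per kilobase. The middle of this order depends on the length used. Per kilobase of coding sequence, Ldha had 1553, Tpi1 1477, Pkm 1416, Pgam2 1337 and Pfkm 1064 CPM, so the places of Pgam2 and Tpi1 are not firm. On the CPM scale Aldoa alone gave 39.4% to 47.0% of the enzymes' summed level.

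For Gapdh and Pgk1 the level of the gene's own row was not the level of the transcript. The mouse genome holds 71 other genes with transcripts at least 95% identical to Gapdh over at least 50% of its length, of which 68 are annotated as pseudogenes and 58 were rows of the deposited table. Those rows together held 576% of the counts of the Gapdh row. The Gapdh row was 13.9% to 16.4% of the sum over Gapdh and its copies, and the summed level was 3812 ± 230 CPM (SD, n = 15), against 563 CPM for the row alone. Pgk1 had 2 such copies, Gm5537 and Pgk1-rs7, with 229% of its counts, and its own row was 27.3% to 33.5% of the sum. The places of Gapdh and Pgk1 in the order of levels are therefore uncertain. The Pkm copy Gm6560 had 3.36% and the 2 Ldha copies 0.982% of their gene's counts, and Hk2, Pfkm, Aldoa, Tpi1, Pgam2 and Eno3 had no such copy.

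**Figure D1:**
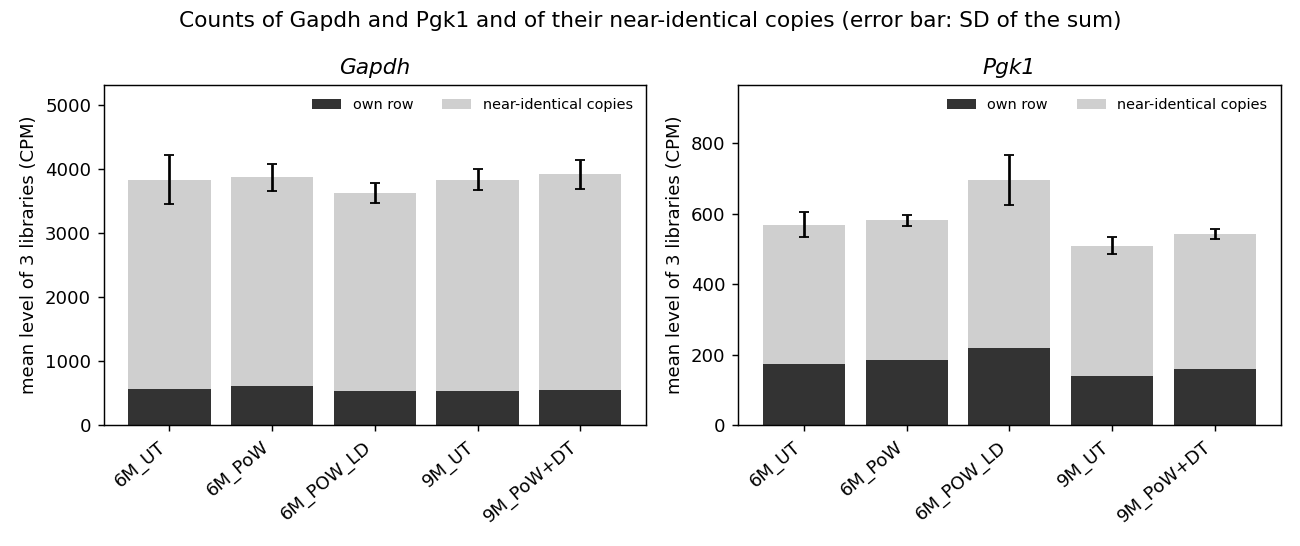
Mean level in CPM (vertical axes) of Gapdh (left) and Pgk1 (right) in each group of 3 libraries, with the gene's own row in dark grey and its near-identical copies in light grey; error bars are the SD of the sum over 3 libraries. The copies hold most of the counts in every group, and the summed level of Gapdh lies between 3619 and 3912 CPM in the 5 groups.

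The genes lie on mm10 as follows. Hk2 spans 6:82725025-82774454, Tpi1 6:124810586-124814296 and Gapdh 6:125161715-125166467, all on the minus strand. Aldoa lies at 7:126795234-126809108 on the minus strand and Ldha at 7:46841475-46855627 on the plus strand. Pgam2 lies at 11:5801640-5803733 on the minus strand and Eno3 at 11:70657202-70662513 on the plus strand. Pfkm lies at 15:98092589-98132451, Pkm at 9:59656368-59679375 and Pgk1 at X:106187100-106203699, all on the plus strand. Values cover the whole gene and not single exons. Hk2, Pfkm, Aldoa, Tpi1, Gapdh and Pkm overlap other annotated genes, and since no source used here gives the use of strand in counting, reads in those overlaps are uncertain. Pgk1, Pgam2, Eno3 and Ldha overlap none.

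The muscle isoforms made up nearly all counts of their enzyme. Hk2 was 97.5% to 98.9% of the summed CPM of Hk1 and Hk2, Pfkm 99.3% to 99.7% of the phosphofructokinases, and Pgam2 98.9% to 99.5% of the mutases. Aldoa was over 99.9% of the aldolases in each library. Ldha was the exception, with 82.7% to 94.6% of the summed CPM of Ldha and Ldhb. Its share was lowest in trained muscle (82.7% to 88.2%) and highest in detrained muscle (90.2% to 94.6%), while untrained muscle of 6 months had 87.9% to 92.4% and of 9 months 88.2% to 91.5%. The LD libraries, trained by their titles, had 87.5% to 90.6%, near untrained muscle. The ratio of Ldha to Ldhb was 6.09 ± 1.34 in 6M_PoW and 9.27 ± 2.56 in 6M_UT (SD, n = 3 each), and 1 trained library overlapped the untrained ones. The counts of Ldhb itself gave no call, with a log2 fold change of 0.45 ± 0.28 (SE) after training and an adjusted p of 0.654.

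**Figure D2:**
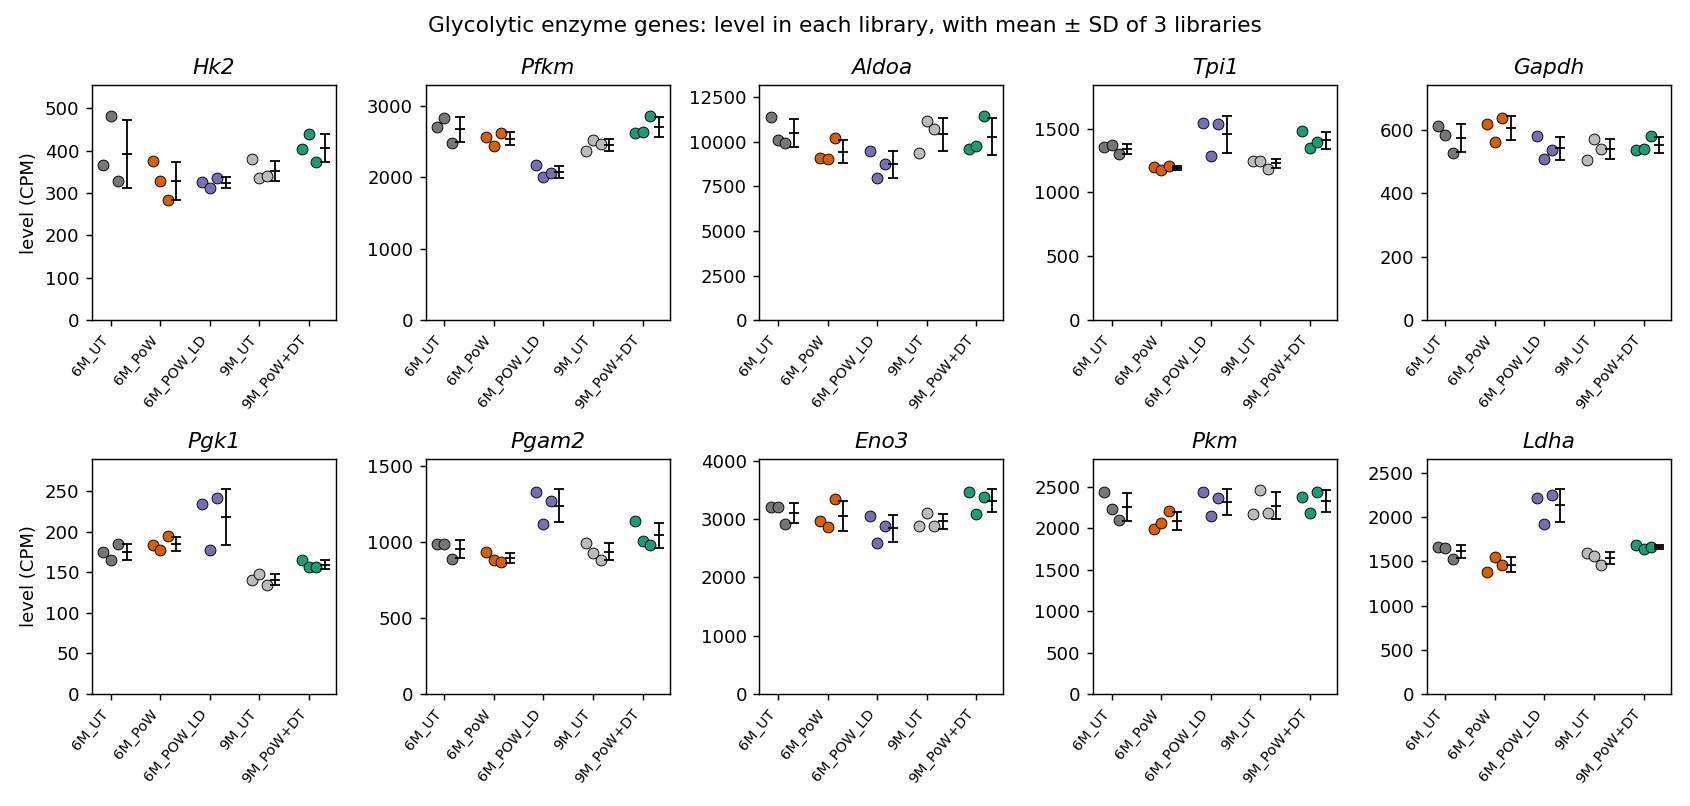
Level in CPM (vertical axes, from 0) of each of the 10 enzymes in each library, by group (horizontal axes), with the mean ± SD of 3 libraries beside the points. Ldha is highest and Pfkm lowest in the 3 LD libraries, Pgam2 is higher in these 3 than in the other libraries of 6 months, and Tpi1 is lower in all 3 trained libraries than in all 3 untrained libraries of the same age.

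Trained and untrained muscle of 6 months were compared to ask which transcripts 8 weeks of PoWeR moved. No enzyme passed an adjusted p of 0.05 by edgeR's quasi-likelihood test or by DESeq2, and 1 had an unadjusted p under 0.05. Over all 14919 genes tested, percent called was 0 at the adjusted threshold and 9.75 at the unadjusted one, and DESeq2 called 0.832% of the genes it tested. Of the 10 enzymes, 8 had a fold change below 0, and their median log2 fold change was -0.10, against 0.0013 over all genes. Abundant genes leaned the same way: of the 3389 genes with a mean log2 CPM of at least 5, 30.5% lay above 0, with a median of -0.07. The enzymes' lean was thus near that of other abundant genes.

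Tpi1, which interconverts the 2 triose phosphates, was the enzyme with the smallest p. It had 1356, 1372 and 1300 CPM in 6M_UT and 1198, 1175 and 1205 CPM in 6M_PoW. All 3 trained libraries were lower than all 3 untrained ones, by 0.17 ± 0.06 on the log2 scale (SE), with an unadjusted p of 0.0138 and an adjusted p of 0.377. It was the only enzyme whose groups did not overlap, where 16.2% of all genes did the same. Hk2 had 366, 482 and 329 CPM untrained and 375, 327 and 283 CPM trained, a log2 fold change of -0.26 ± 0.13 (SE) with an adjusted p of 0.575. The wide untrained values, with 1 library at 482 CPM, overlapped the trained ones. Ldha had 1662, 1649 and 1531 CPM untrained and 1377, 1551 and 1462 CPM trained. These groups also overlapped, and the log2 fold change was -0.14 ± 0.07 (SE), with an adjusted p of 0.511.

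The other enzymes did not pass either. Aldoa had 11410, 10083 and 9951 CPM untrained and 9062, 9047 and 10183 CPM trained, a log2 fold change of -0.15 ± 0.09. Pkm, the pyruvate kinase, had -0.11 ± 0.08, Pgam2 -0.09 ± 0.08, Pfkm, the pacemaker of the pathway, -0.07 ± 0.07 and Eno3 -0.02 ± 0.08 (log2 fold change ± SE). Gapdh at 0.08 ± 0.08 and Pgk1 at 0.08 ± 0.07 lay above 0, and each had an adjusted p over 0.7. Summed over the 10 genes the level was 23581 ± 1352 CPM in 6M_UT and 21799 ± 1064 CPM in 6M_PoW (SD, n = 3 each). Markers of 3 other cell types summed to more in each trained library than in any untrained one. Those of fibro-adipogenic progenitors, cells of the muscle's connective tissue, summed to 365 to 391 CPM untrained and 487 to 602 CPM trained. Endothelial markers summed to 260 to 306 CPM and 336 to 365 CPM, and leukocyte markers to 40.2 to 46.0 CPM and 56.4 to 74.3 CPM. Each list holds 8 genes, none of them at 0 in a whole group. By log2 fold change 8 progenitor, 7 endothelial and 7 leukocyte markers lay above 0, and none was called. Of the 8 adipocyte markers 1 lay above 0 and 7 below, with a list median of -0.29 and no call. The share of counts from the mitochondrial genome was 18.6% to 19.1% untrained and 19.8% to 21.1% trained. The part of these in the enzymes' values was not tested.

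At 9 months, detrained muscle was compared with untrained muscle to ask what remained after training had stopped. Again no enzyme passed an adjusted p of 0.05 by edgeR or DESeq2. Of the 10 enzymes, 9 lay above 0, with a median log2 fold change of 0.15, against 0.0048 over all genes and -0.0025 over abundant genes. An unadjusted p under 0.05 was reached by 3 enzymes, and percent called over all genes was 6.52 at that threshold and 0.0201 at the adjusted one, with 0.201 by DESeq2. In 4 enzymes all 3 detrained libraries were higher than all 3 untrained ones, and 11.9% of all genes had groups that did not overlap. By the treatment field, which exchanges the 9-month groups, each of these signs reverses.

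Tpi1 had 1249, 1247 and 1185 CPM in 9M_UT and 1480, 1350 and 1391 CPM in 9M_PoW+DT. The detrained libraries lay above the untrained ones without overlap, by 0.20 ± 0.06 (log2 ± SE), with an unadjusted p of 0.0054 and an adjusted p of 0.605. Pgk1, which makes the first ATP of the pathway, had 140, 148 and 134 CPM untrained and 165, 157 and 157 CPM detrained, a log2 fold change of 0.18 ± 0.07. Pfkm had 2361, 2527 and 2461 CPM untrained and 2614, 2637 and 2861 CPM detrained, a log2 fold change of 0.14 ± 0.07. Ldha had 1591, 1566 and 1456 CPM untrained and 1688, 1635 and 1668 CPM detrained, a log2 fold change of 0.11 ± 0.07. In these last 3 genes too the detrained libraries lay above the untrained ones, and the adjusted p was 0.699 for Pgk1, 0.759 for Pfkm and 0.799 for Ldha.

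Of the other enzymes, Eno3 had 2892, 3115 and 2887 CPM untrained and 3471, 3098 and 3383 CPM detrained, with 1 detrained library below the highest untrained one. Its log2 fold change was 0.16 ± 0.08, and that of Pgam2 was 0.16 ± 0.08, of Hk2 0.21 ± 0.13, of Pkm 0.04 ± 0.08 and of Gapdh 0.04 ± 0.08 (SE). Aldoa was the enzyme below 0, at -0.02 ± 0.09. The summed level of the 10 genes, of which Aldoa is the largest part, overlapped between the groups, at 22826 ± 1203 CPM untrained and 23873 ± 1273 CPM detrained (SD, n = 3 each). The mitochondrial share of counts was lower in every detrained library, at 16.0% to 18.9%, than in the untrained ones, at 19.5% to 21.7%. All 8 endothelial markers lay below 0, none of them called, and their sums overlapped slightly, at 237 to 293 CPM detrained and 293 to 322 CPM untrained. All 6 Schwann cell, 6 tendon and 5 red blood cell markers lay above 0 without a call, and their sums overlapped between the groups. Of the 8 adipocyte markers 6 lay above 0 and 2 below, with a list median of 1.03, and 4 had an unadjusted p under 0.05. None of the 8 was called. Their sums overlapped, at 2612 to 3464 CPM detrained and 3073 to 3295 CPM untrained. The part of these in the enzymes' values was not tested.

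The difference of both contrasts, detraining minus training, was tested directly. Of the 10 enzymes 9 lay above 0, with a median of 0.20 on the log2 scale. Abundant genes leaned the same way, with 64.2% above 0 and a median of 0.07, while the median over all genes was 0.0039. No enzyme passed an adjusted p of 0.05 by edgeR, and 5 had an unadjusted p under 0.05. Percent called over all genes was 0.0268 adjusted and 9.48 unadjusted. All 8 endothelial, 8 progenitor and 8 leukocyte markers lay below 0 in this difference, with medians of -0.54, -0.48 and -0.47. Of the 8 adipocyte markers 7 lay above 0 and 1 below, with a median of 1.48. The part of these cells in the enzymes' difference was not tested. Tpi1 had the smallest p, with a difference of 0.37 ± 0.09 (log2 ± SE), an unadjusted p of 0.00066 and an adjusted p of 0.222. DESeq2 called Tpi1, with a difference of 0.37 and an adjusted p of 0.00751, where it called 0.970% of the genes it tested. The others with an unadjusted p under 0.05 were Hk2 at 0.46 ± 0.19, Ldha at 0.26 ± 0.09, Pgam2 at 0.25 ± 0.11 and Pfkm at 0.22 ± 0.10, and their adjusted p was 0.397 to 0.495.

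Untrained muscle of 9 months was compared with that of 6 months, a comparison in which age and library series cannot be told apart. Of the 10 enzymes 9 were below 0, by a median of 0.08 on the log2 scale, and 1 had an unadjusted p under 0.05. Percent called over all genes was 0.0134 adjusted and 6.72 unadjusted. Pgk1 had 175, 166 and 185 CPM at 6 months and 140, 148 and 134 CPM at 9 months. All older libraries lay below all younger ones, with a log2 fold change of -0.31 ± 0.07 (SE), an unadjusted p of 0.00042 and an adjusted p of 0.231 by edgeR. DESeq2 called it, at -0.31 with an adjusted p of 0.0200, among 0.389% of the genes it tested. Tpi1 was the other enzyme whose groups did not overlap, at -0.13 ± 0.06 with an adjusted p of 0.741, and 11.8% of all genes had such groups. Summed with its copies, Pgk1 had 568 ± 35.8 CPM at 6 months and 509 ± 23.5 CPM at 9 months (SD, n = 3 each), a smaller difference than in its own row. Progenitor markers summed to 365 to 391 CPM at 6 months and 433 to 465 CPM at 9 months, leukocyte markers to 40.2 to 46.0 CPM and 52.7 to 60.7 CPM, and adipocyte markers to 2070 to 2949 CPM and 3073 to 3295 CPM. The single adipocyte markers were split, 4 of 8 above 0 and 4 below, with a list median of 0.06. The mitochondrial share was 18.6% to 19.1% and 19.5% to 21.7%. None of these ranges overlapped between the ages, and their part in the enzymes' values was not tested.

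The LD libraries differed from the other 6-month libraries in single enzymes, and these went in opposite directions. Against untrained muscle, edgeR's quasi-likelihood test called 3 of the 10 enzymes: Ldha and Pgam2 were higher and Pfkm was lower. Percent called over all 15181 genes was 4.99, with 2.15 higher and 2.83 lower. An unadjusted p under 0.05 was reached by 6 enzymes, and percent called at that threshold was 20.0. The median over the enzymes was -0.02 and that over all genes 0.0083. In 4 enzymes the groups did not overlap, 2 in each direction, and 25.2% of all genes did the same. These shares were larger among abundant genes, to which the enzymes belong. Of 3379 abundant genes, 159 were called higher and 242 lower, 1147 had an unadjusted p under 0.05 and 1299 had groups that did not overlap. The number of enzymes whose groups did not overlap was thus near that of abundant genes.

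Ldha had 2221, 1923 and 2254 CPM in the LD libraries, all above the 1531 to 1662 CPM of 6M_UT. It rose by 0.40 ± 0.07 on the log2 scale (SE), 1.32-fold, with an adjusted p of 0.00305. Pgam2 had 1331, 1119 and 1269 CPM against 988, 990 and 890 CPM untrained. Its LD libraries were also all above the untrained ones, by 0.37 ± 0.08, with an adjusted p of 0.0102, but the call ended without 6M_UT replicate 3 (adjusted p of 0.0502) or without 6M_POW_LD replicate 4 (adjusted p of 0.0560). Pfkm had 2170, 1997 and 2060 CPM against 2709, 2829 and 2483 CPM untrained. It fell by 0.36 ± 0.07 on the log2 scale, to 0.776-fold, with an adjusted p of 0.00347.

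Aldoa had 9472, 7953 and 8756 CPM in the LD libraries, all below the 9951 to 11410 CPM of 6M_UT, but its log2 fold change of -0.26 ± 0.09 did not pass, with an adjusted p of 0.104. Pgk1 had 234, 178 and 241 CPM, of which the second lay within the untrained range of 166 to 185 CPM. Its log2 fold change was 0.31 ± 0.09 with an adjusted p of 0.0543, and it was called at 0.44 with an adjusted p of 0.00512 without 6M_POW_LD replicate 5, the low library. Pgk1 was also called by DESeq2, at 0.31 with an adjusted p of 0.0344, where DESeq2 called 10.2% of the genes it tested. Among genes with at least 10 counts in every library edgeR called it, at 0.32 with an adjusted p of 0.0422. With its near-identical copies added it was called too, at 0.29 with an adjusted p of 0.0314, from 694.5 ± 70.9 CPM in the LD libraries and 568 ± 35.8 CPM untrained (SD, n = 3 each). Hk2 at -0.27 ± 0.12, Eno3 at -0.13 ± 0.08, Tpi1 at 0.12 ± 0.07, Gapdh at -0.08 ± 0.08 and Pkm at 0.04 ± 0.08 did not pass.

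The same LD libraries were set against the 3 trained libraries 6M_PoW, whose titles give the same training. Here 4 of the 10 enzymes were called, Ldha, Pgam2 and Tpi1 higher and Pfkm lower. Percent called over all genes was 2.40, with 1.28 higher and 1.12 lower. DESeq2 also called 4 enzymes, where it called 5.03% of the genes it tested. At an unadjusted p under 0.05 there were 6 enzymes and percent called was 14.3, and the groups did not overlap in 4 enzymes and in 21.4% of all genes. Abundant genes had larger shares here too. Of 3379 abundant genes, 138 were called higher and 74 lower, 854 had an unadjusted p under 0.05 and 1126 had groups that did not overlap. The 2 LD comparisons share the LD libraries and are not independent of each other.

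Ldha was 1.46-fold higher in the LD libraries than in trained muscle, by 0.54 ± 0.07 (log2 ± SE), with an adjusted p of 0.000406. Pgam2 was higher by 0.47 ± 0.08 with an adjusted p of 0.00309, its LD libraries at 1119 CPM or more and its trained libraries, at 933, 885 and 871 CPM, all lower. Both calls held under each of the 14 alternatives run for them. Pfkm was lower by 0.29 ± 0.07, with an adjusted p of 0.0230, and had 2556, 2442 and 2624 CPM in the trained libraries, all above the LD ones. Tpi1 had 1546, 1287 and 1533 CPM in the LD libraries against 1175 to 1205 CPM in the trained ones. It was higher by 0.29 ± 0.07, with an adjusted p of 0.0346.

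The Pfkm and Tpi1 calls depended on single libraries. Pfkm lost its call without 6M_PoW replicate 1 or 3 or without 6M_POW_LD replicate 5 or 6, with adjusted p of 0.0761 to 0.106. Tpi1 lost its call without any 1 of the 3 trained libraries or without 6M_POW_LD replicate 4 or 6, with adjusted p of 0.0853 to 0.169. With library totals alone in place of scaled ones Tpi1 had 0.24 and an adjusted p of 0.113. Pgk1 at 0.23 ± 0.09, Pkm at 0.15 ± 0.08, Gapdh at -0.16 ± 0.08, Aldoa at -0.11 ± 0.09, Eno3 at -0.11 ± 0.08 and Hk2 at -0.02 ± 0.12 did not pass. Pgk1 was called here at 0.36 with an adjusted p of 0.0237 without 6M_POW_LD replicate 5.

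**Figure D3:**
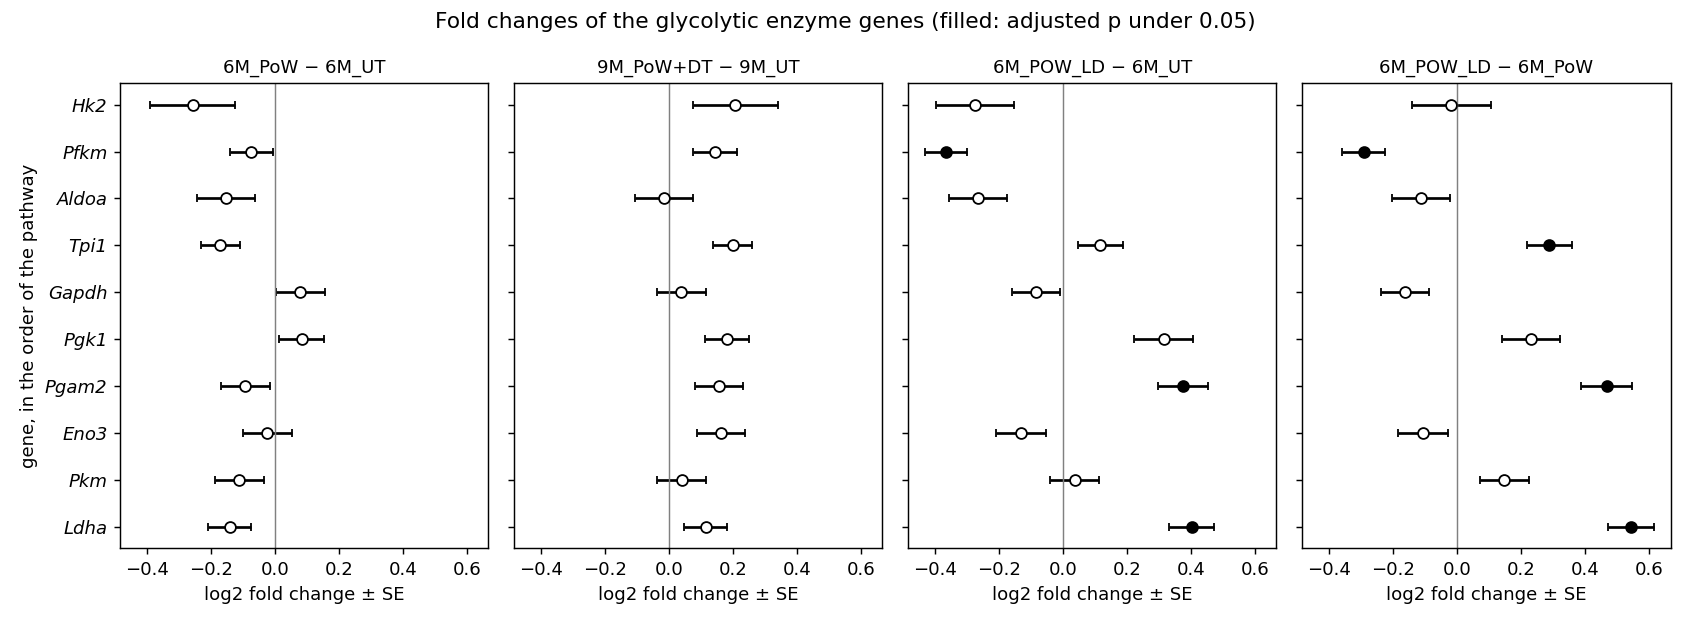
Log2 fold change ± SE (horizontal axes) of the 10 enzymes in the order of the pathway, for training, detraining and the LD libraries against untrained and against trained muscle; filled points have an adjusted p under 0.05. Training and detraining have no filled point, while Ldha and Pgam2 lie to the right and Pfkm to the left in both LD comparisons.

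Ratios between enzymes within a library need no scaling between libraries. The ratios shown pair enzymes that the tests above called in opposite directions in the LD libraries. Their split thus follows from those calls and is not separate support. The ratio of Ldha to Pfkm counts was 1.02, 0.963 and 1.09 in the LD libraries. Its group means were 0.577 to 0.628 in the other 4 groups, where the highest single library had 0.674. That of Pgam2 to Pfkm was 0.613, 0.560 and 0.616 in the LD libraries. Its group means elsewhere were 0.353 to 0.388, and the highest single library there had 0.436. Among LD libraries the second was the lowest for Ldha, Pgam2, Tpi1, Pgk1 and Aldoa in CPM, and its ratios stayed far above those of the other groups. That library, 6M_POW_LD replicate 5, also had the largest share of counts from the mitochondrial genome, 22.5%, against 16.0% to 21.7% in the other 14 libraries. By transcript length or GC content the abundant genes showed medians of -0.06 to -0.01 when they were divided into 4 equal bins, in the LD comparison with untrained muscle, and of 0.01 to 0.06 in that with trained muscle.

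Summed markers of several other cell types were also higher in the LD libraries. Against untrained muscle all 8 fibro-adipogenic progenitor markers lay above 0 and 4 were called, with a summed level of 502 to 628 CPM against 365 to 391 CPM. Percent called over all genes was 4.99. All 8 leukocyte markers lay above 0 and 1, Lyz2, was called, with a summed level of 60.3 to 72.7 CPM against 40.2 to 46.0 CPM. Schwann cell markers summed to 62.2 to 159 CPM against 45.1 to 54.4 CPM. Red blood cell genes summed to 504 to 3112 CPM against 326 to 893 CPM, and these ranges overlapped. Those of endothelial markers (309 to 371 against 260 to 306 CPM), adipocyte markers (2985 to 3535 against 2070 to 2949 CPM) and tendon markers (101 to 125 against 68.2 to 89.3 CPM) did not. Of the 8 adipocyte markers, however, 2 lay above 0 and 6 below, with a list median of -0.31. The mitochondrial share was 19.2% to 22.5% in the LD libraries and 18.6% to 19.1% in 6M_UT. None of these markers was at 0 in a whole group. Against trained muscle the adipocyte sum was higher without overlap, at 2985 to 3535 CPM against 2170 to 2200 CPM. Of its 8 markers 4 lay above 0 and 4 below, and 1 was called. This was Car3, named here after its values were seen, at 0.59 ± 0.12 with an adjusted p of 0.0131. Car3 is also expressed by slow muscle fibres. All 6 Schwann cell and 5 red blood cell markers lay above 0 with medians of 0.48 and 1.16 on the log2 scale, none of them called. The progenitor sums overlapped, at 502 to 628 and 487 to 602 CPM, and none of the 8 progenitor markers was called. The part of other cells in the enzymes' differences was not tested in either comparison.

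The other isoforms and steps of glycolysis were read from a list of 17 genes, of which 11 passed the filter for the LD comparisons. Eno1, the enolase of most other tissues, was called with the largest change. It had 52.6, 59.9 and 57.5 CPM in the LD libraries and 24.0 to 32.1 CPM in 6M_UT, all LD libraries being higher. It rose by 1.06 ± 0.12 on the log2 scale against untrained muscle, with an adjusted p of 4.29e-05, and by 1.07 ± 0.12 against trained muscle, with an adjusted p of 1.09e-04. Eno1 shares reads with Eno1b and 2 pseudogenes, and summed with them it had 104 ± 5.60 CPM in the LD libraries and 54.3 ± 6.62 CPM untrained (SD, n = 3 each). Eno3 was still 97.7% to 98.3% of the summed counts of Eno3, Eno1 and Eno2 in the LD libraries, below the 99.0% to 99.3% of all other libraries. These shares leave out Eno1b and the 2 pseudogenes. Ldhd, the D-lactate dehydrogenase of mitochondria, rose by 0.43 ± 0.08 against untrained muscle, with an adjusted p of 0.00563. It had 69.8, 61.3 and 62.4 CPM in the LD libraries and 46.0, 48.3 and 49.8 CPM in 6M_UT.

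Of the remaining isoforms, Hk1 had log2 fold changes of 0.46 ± 0.20 and 0.43 ± 0.20 in the 2 LD comparisons and did not pass. Gpi1, which makes fructose 6-phosphate, had 561 ± 47.4 CPM untrained, 516 ± 53.4 CPM trained and 511 ± 31.1 CPM in the LD libraries (SD, n = 3 each). Pfkl, Pfkp, Pgam1, Eno2 and Ldhb gave no call in any comparison, and Aldoc passed the filter for the LD comparisons alone and was not called. After training 0 of the 10 listed genes tested were called. Ldhd had 54.2, 64.0 and 60.4 CPM in 6M_PoW, all above the untrained libraries, with a log2 fold change of 0.31 ± 0.08 and an adjusted p of 0.218.

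Genes that bring glucose in and store or release glycogen were read from a list of 19. After training none was called, 15 lay below 0 with a list median of -0.16, and 9 had an unadjusted p under 0.05, of which 8 were lower. Over all genes 9.75% had such a p. Abundant genes also leaned below 0, with a median of -0.07, and 433 of their 551 with such a p were lower. Ppp1r3a, the muscle subunit that targets a phosphatase to glycogen, had -0.36 ± 0.10 with an adjusted p of 0.246. Phkb, a subunit of phosphorylase kinase, had -0.23 ± 0.07, and the glucose transporter gene Slc2a3 had -0.96 ± 0.29. In the LD libraries against untrained muscle 1 gene of the list rose and 6 fell. Percent called over all genes was 4.99 there, with 2.15 higher and 2.83 lower. Stbd1, a protein that binds glycogen, rose from 14.9, 20.6 and 15.4 CPM to 54.3, 51.0 and 48.1 CPM, by 1.59 ± 0.15 on the log2 scale with an adjusted p of 1.78e-05. Gaa, the lysosomal enzyme that degrades glycogen, fell from 267, 243 and 230 CPM to 139, 125 and 146 CPM, by 0.85 ± 0.09 on the log2 scale with an adjusted p of 1.83e-05. In both genes the groups lay well apart.

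Ugp2, which makes the sugar donor of glycogen synthesis, fell by 0.42 ± 0.10 and Gyg, the primer of glycogen, by 0.28 ± 0.06 on the log2 scale. The other 3 that fell were Gys1, the glycogen synthase, Ppp1r3a and Slc2a3. Against trained muscle, Stbd1 (1.14 ± 0.15) and the branching enzyme Gbe1 (0.37 ± 0.09) were called higher and Gaa (-0.67 ± 0.09) lower, where 2.40% of all genes were called. In detrained muscle 0 of the 19 were called, and Gyg had the smallest p, at -0.14 ± 0.06 with an adjusted p of 0.735.

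Regulators of the pathway, 17 genes for the control of fructose 2,6-bisphosphate and for transcription, gave no call after training or detraining. In the LD libraries against untrained muscle 1 rose and 2 fell, where 4.99% of all genes were called. Fbp2, the muscle fructose bisphosphatase, which runs the phosphofructokinase step backwards, had 9.00, 7.12 and 10.6 CPM against 24.9, 22.5 and 26.9 CPM untrained. It fell by 1.47 ± 0.21 on the log2 scale with an adjusted p of 0.00131. Pfkfb4, an enzyme that makes and breaks down fructose 2,6-bisphosphate, fell from 56.7, 49.4 and 44.6 CPM to 26.9, 24.3 and 29.5 CPM, by 0.90 ± 0.14 with an adjusted p of 0.000973. Foxk2, a transcription factor known to raise glycolytic genes, rose by 0.34 ± 0.08 with an adjusted p of 0.0218. The same 3 genes were called in the same directions against trained muscle, at -1.19 ± 0.21, -0.65 ± 0.14 and 0.48 ± 0.08. Percent called over all genes was 2.40 there.

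After training, the nuclear receptor gene Esrra had -0.25 ± 0.08 with an adjusted p of 0.280, and Foxk2 -0.14 ± 0.08. In detrained muscle Esrra had 0.19 ± 0.08 and Pfkfb3 -1.19 ± 0.47, each with an adjusted p over 0.7. Pfkfb3 spread widely, from 238 to 479 CPM in 9M_UT and from 95.6 to 235 CPM in 9M_PoW+DT.

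**Figure D4:**
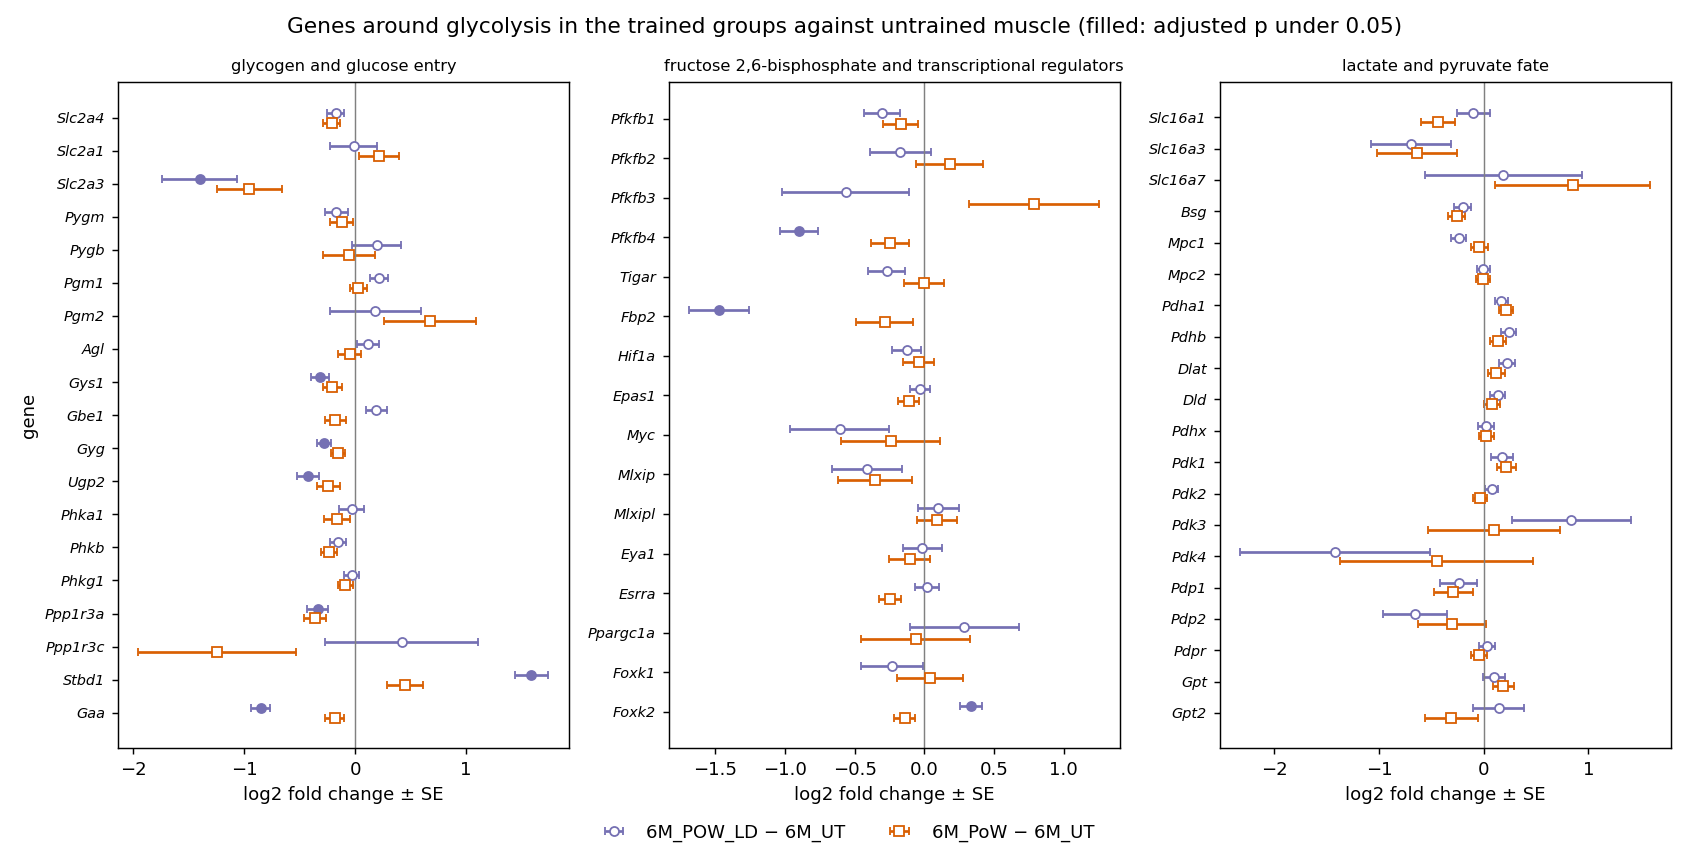
Log2 fold change ± SE (horizontal axes) of genes from 3 lists around glycolysis, for the LD libraries (circles) and trained muscle (squares) against untrained muscle of 6 months; filled symbols have an adjusted p under 0.05. Stbd1 stands to the right and Gaa, Fbp2 and Pfkfb4 to the left in the LD libraries, and no square is filled.

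The fate of pyruvate and lactate was read from 21 genes for transporters, pyruvate dehydrogenase and its regulators, of which 20 were tested. None was called in the training, detraining or LD comparisons, and after training 4 had an unadjusted p under 0.05, 2 in each direction. Over all genes 9.75% had such a p after training. Pdha1, a subunit of pyruvate dehydrogenase, had 0.21 ± 0.06 and Bsg, the partner protein of the lactate transporters, -0.26 ± 0.08, with adjusted p of 0.275 and 0.300. The lactate transporter gene Slc16a1 had -0.44 ± 0.17 after training. In the LD libraries against untrained muscle Mpc1, a subunit of the mitochondrial pyruvate carrier, had -0.24 ± 0.07 and Pdhb 0.24 ± 0.07, with adjusted p of 0.0696 and 0.0738. In detrained muscle Pdhx, the subunit that anchors part of the pyruvate dehydrogenase complex, had the smallest p of the list, at 0.20 ± 0.08 with an adjusted p of 0.690.

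Shuttles that carry cytosolic NADH into mitochondria, 10 genes, gave 1 call. Slc25a12, an aspartate and glutamate carrier, was higher in the LD libraries than in trained muscle by 0.27 ± 0.07 with an adjusted p of 0.0426. In that comparison 2.40% of all genes were called. Slc25a12 had 573, 550 and 545 CPM in the LD libraries and 461, 495 and 425 CPM in the trained ones. After training Got2, the mitochondrial aspartate aminotransferase, had 555, 531 and 501 CPM against 400, 401 and 430.5 CPM untrained. Its trained libraries were all higher, by 0.37 ± 0.07, with an adjusted p of 0.118.

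Against untrained muscle the fast fibre list, like the enzymes, held calls in both directions. Of 13 fast fibre genes, 4 rose and 1 fell in the LD libraries against untrained muscle, where 4.99% of all genes were called. Myl1, a myosin light chain, rose by 0.47 ± 0.08, Casq1, the calcium store protein of fast fibres, by 0.46 ± 0.08 and Myh1 by 0.43 ± 0.10 on the log2 scale, Pvalb rose too, and Actn3 fell by 0.77 ± 0.15. Against trained muscle 3 were called, all higher: Casq1 at 0.54 ± 0.08, Pvalb, the calcium-binding protein of fast fibres, at 0.44 ± 0.08 and Myl1 at 0.39 ± 0.08. Percent called over all genes was 2.40 in that comparison. None of the 10 slow fibre genes was called in the training, detraining or LD comparisons. The fast fibre sum was 110268 to 130239 CPM in 6M_UT and 107782 to 124034 CPM in the LD libraries, and overlapped.

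Genes whose pattern was most like that of the enzymes were ranked by their correlation with the mean of the enzymes' z-scores over 15 libraries, among 3351 genes with a mean log2 CPM of at least 5. The 5 highest were Elob at 0.86, Gm6560 at 0.85, Rabep2 at 0.84, Tnnt3 at 0.83 and Uqcc2 at 0.82 (Pearson's r). Gm6560 is the near-identical copy of Pkm. The enzymes' own correlations with their mean ran from 0.34 for Pfkm and Pgk1 to 0.80 for Pkm. The 5 genes were picked as the highest of the 3351 by this same correlation, so their values cannot be set against those of the enzymes. All points share the 15 libraries and their scaling. The mean z-score did not follow the groups closely: the LD libraries held both the highest value of the 15, 0.72, and the lowest, -0.76.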

How the data were processed

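Gene expression was measured by RNA sequencing of plantaris RNA, isolated by TRIzol and a Zymo kit, as stated per the labels. The authors deposited expected counts per gene for all 15 libraries, of which 26.9% to 31.9% in each library had decimals. The submitters' processing notes list STAR 2.7.3a, DESeq2, Partek and the build mm10 but no role for any of them. No source used here gives how reads were counted, or whether by strand. Members and gene lists were chosen with earlier results of these data known.

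Expected counts were rounded. Genes passing edgeR's filterByExpr (14919 in the 12 libraries without LD, 15181 in all 15) received trimmed-mean-of-M-values scaling and 1 mean per group in edgeR's robust quasi-likelihood fit (edgeR 4.0.16 in R 4.3.3). The 4 comparisons that use no LD library came from the 12-library fit, the 2 with them from the 15-library fit. Benjamini-Hochberg adjustment ran over all genes tested, and an adjusted p under 0.05 was called. CPM give a gene's count per 1000000 counts of the scaled library, as mean ± SD. Near-identical copies were found with blastn 2.17.0 against GENCODE transcripts of mm10, and positions of all 10 genes matched the deposited ones. Named genes were the 10 enzymes in every comparison, their isoforms, up to 4 called genes of each list by p with up to 3 of the smallest unadjusted p, and the 5 most alike in pattern. DESeq2 1.42.0, limma-voom (limma 3.58.1), other scalings and filters, a replicate block, other readings of the labels and leaving out each library were alternatives. Values of 2 listed genes are not reported here.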

Additional observations from a re-analysis of the deposited data

Results flagged for a closer look

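The LD libraries and the trained libraries of 6 months carry titles of the same training, and in 4 enzymes the test of the difference between them passed: Pfkm at -0.29, Tpi1 at 0.29, Pgam2 at 0.47 and Ldha at 0.54 (log2, LD minus trained). Tpi1 was lower in all 3 trained libraries and higher in all 3 detrained libraries than in the untrained libraries of the same age. The difference of its contrasts was 0.37 on the log2 scale, which did not pass in edgeR's test of the difference, with an adjusted p of 0.222.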

How the results depend on the processing

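The replicate block left 0 enzymes called in the training, detraining, difference and age comparisons (Tpi1, training: -0.17 with an adjusted p of 0.447). Deviations from the group mean had correlations of -0.219 to 0.155 (median 0.010) between same-numbered libraries of different groups. Between libraries of other numbers they were -0.201 to 0.227 (median 0.0044). No pairing by number was seen, but these values cannot exclude one. The LD libraries carry other numbers and had no block.

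Counts of called enzymes stayed at 0 in training and detraining under each alternative run. DESeq2 called 1 enzyme in the difference (Tpi1), where it called 0.970% of all genes it tested, and 1 in the age comparison (Pgk1), where it called 0.389%. It also added Pgk1 to the enzymes called in the LD libraries against untrained muscle. Leaving out 1 library gave 2 to 4 calls in each LD comparison and 0 elsewhere. For LD against trained muscle, 2 calls were left without 6M_PoW replicate 1 or 3 or 6M_POW_LD replicate 6. With the 9-month groups exchanged, the enzymes' median was -0.15 for detraining, -0.046 for the difference and 0.046 for age.

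Signs reversed as follows (log2 fold changes, none called). With the 9-month groups exchanged, detraining gave Hk2 -0.21, Pfkm -0.14, Aldoa 0.0159, Tpi1 -0.20, Gapdh -0.0379, Pgk1 -0.18, Pgam2 -0.16, Eno3 -0.16, Pkm -0.0400 and Ldha -0.11. The difference gave Pfkm -0.0705, Tpi1 -0.0281, Pgk1 -0.26, Pgam2 -0.0643 and Eno3 -0.14, and age gave Hk2 0.0482, Pfkm 0.0172, Tpi1 0.0687, Pgam2 0.13, Eno3 0.0931 and Ldha 0.0447. With the LD libraries counted as trained, training gave Gapdh -0.000489, Pgam2 0.16 and Ldha 0.16, and the difference gave Gapdh 0.0373, Pgk1 -0.0232, Pgam2 -0.00453 and Ldha -0.0418. With them counted as untrained, training gave Pfkm 0.0976, Pgk1 -0.0829 and Eno3 0.0400, and age gave Pfkm 0.0447, Aldoa 0.12 and Pkm -0.0110. Library totals alone gave Eno3 0.0192 in training, Aldoa 0.0402 in detraining and Pkm -0.0208 in age. With copies added, an alternative chosen after seeing the data, Gapdh had 0.0199 in the difference. Leaving out 1 library gave values on either side of 0 for Eno3 in training (-0.0864 to 0.0230), for Aldoa (-0.10 to 0.0353) and Gapdh (-0.00557 to 0.0795) in detraining and for Gapdh in the difference (-0.0915 to 0.0172). It did so in age for Hk2 (-0.27 to 0.0166), Aldoa (-0.0628 to 0.0602), Pgam2 (-0.0772 to 0.0128) and Pkm (-0.0535 to 0.0644). In the LD comparisons it did so for Pkm against untrained (-0.0135 to 0.0929) and Hk2 against trained muscle (-0.11 to 0.0872). In detraining the exchange of the 9-month groups reverses every sign by its own construction. In the difference and in age it does not fix the sign, and those reversals depend on which label of the 9-month libraries is right. For the other settings the cause was not tested. With 3 libraries a group, small fold changes could not be separated from the spread between libraries, and a missed threshold does not show that values were equal.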
